A study of Bos taurus with 12 samples.

Results

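The extracellular matrix and cell adhesion genes described here are 111 genes chosen by their symbols: collagens (COL), laminins (LAM), integrins and integrin-named genes (ITGA, ITGB), matrix metalloproteinases (MMP) and their inhibitors (TIMP), ADAM and ADAMTS proteases, cadherins named CDH with a number, lysyl oxidases (LOX), thrombospondins (THBS), the SPARC pair, fibrillins and fibulins, and FN1, VCAN, POSTN, LUM, DCN, BGN and SRGN. They make up 111 of the 9155 genes that a single symbol names on a bovine Affymetrix array, and 198 of its 24016 probe sets. Each gene was followed through its probe set with the highest mean over the 12 arrays. The choice went by symbol, but it was made with earlier results of these data known.

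The arrays measured oocytes of Japanese Black cattle in a design of 2 ages by 2 stages with 3 pools of 50 oocytes each. The prepubertal donors were heifers 9 to 12 months old whose ovaries were removed on farms with a spay device, and the adult donors were cows sampled at an abattoir; follicles of 2 to 8 mm were aspirated in both ages. Germinal vesicle (GV) oocytes, held in meiotic prophase, were taken straight after aspiration, and metaphase II (MII) oocytes were chosen by their first polar body after 20 to 22 h of maturation in vitro as cumulus complexes in a medium with serum. All pools were stripped of cumulus cells with hyaluronidase and their RNA was amplified before labelling. Age and the way ovaries were obtained cannot be told apart in this design, nor can stage and culture. The labels call the pools biological replicates without naming animals, so the p-values given here measure the spread between these pools. The comparisons ask how the transcripts of an oocyte differ with the age of its donor and with maturation.

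The matrix around the growing oocyte and its follicle is made of collagens, laminins, glycoproteins and proteoglycans, and it is read by integrins, which join it to the cytoskeleton, while cadherins join cell to cell. Granulosa and cumulus cells, theca and stroma make most of the follicle's matrix. Cumulus cells lay down a hyaluronan and versican matrix when the complex expands, and proteases of the ADAMTS and MMP families, held back by TIMPs, cut matrix proteins. The oocyte meets its cumulus cells through cadherins and gap junctions across the zona pellucida.

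The oocyte label was checked first. BMP15, the growth factor that oocytes secrete, lay between 14.21 and 15.10 on 9 arrays and at 7.08, 6.47 and 6.55 on 3 arrays, which are GV prepubertal replicate 1, GV adult replicate 1 and MII prepubertal replicate 1 (values are the deposited log2 signals throughout). The summed linear signal of 8 oocyte genes was 4525 and 4624 on both prepubertal replicate 1 arrays and 5755 on GV adult replicate 1, against 102038 to 193431 on the 9 others. The summed signal of 19 cumulus and granulosa genes was 116274 and 161387 on both prepubertal replicate 1 arrays against 5897 to 16105 on the 9 arrays, and that of 14 theca, stroma and fibroblast genes 17459 and 30294 against 929 to 2535. SERPINE2, at 15.95 and 16.54, made up much of the first sum there, and VIM, at 13.25 and 14.66, much of the second. By their mean, 17 of the 19 genes were higher there (median difference 3.26) and 10 of the 14 (median 1.59). STAR went the other way, at 5.10 and 8.74 against 11.56 to 13.58, and FOXL2, CYP17A1, DES, THY1 and S100A4 were also lower there. Of 15 blood and endothelial genes, 12 were higher there by their mean, with a median difference of 0.88. Their summed signal was 789 and 1497 against 2597 to 9920, but TEK, an endothelial receptor, made up much of it on the 9 arrays, and without TEK it was 772 and 1389 against 441 to 1538. GV adult replicate 1 gave 8747, 6118 and 5760 for these 3 lists, and its highest rank correlation with any other array was 0.138. Both prepubertal replicate 1 arrays were nearest to each other, with a rank correlation of 0.705. Both correlations are over the 14409 probe sets that passed the filter described below. In pools, a smaller share of cells of one type and less RNA per cell cannot be told apart. The 3 arrays are given apart from the other 9 below, and each tested difference is given over all 12 arrays and over the 9.

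On the 9 arrays with high BMP15 most of these genes were dim. 77 of the 111 genes (69.4%) were above the array's 75th percentile on none of them, against 38.2% of all genes taken with one probe set each. Only 10 (9.01%) were above it on all 9, against 17.4% of all genes. The 10 were the integrin subunits ITGB5, ITGB1 and ITGAE, the laminin chain LAMC1, the proteoglycan VCAN, the glycoprotein THBS1, the cadherins CDH3 and CDH1 and the proteases ADAMTS4 and ADAM19. No fibrillar collagen, no MMP, no TIMP and no lysyl oxidase was among them. Probe sets differ in brightness for reasons of their sequence, so levels are compared across arrays within a gene and not between genes.

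Among the matrix proteins bright on the oocyte arrays, LAMC1, the gamma chain shared by most laminins, was the steadiest by its brightest probe set. Its probe set read 12.19 and 13.53 in the GV prepubertal pools with high BMP15, 13.86 and 13.79 in GV adult, 13.16 and 13.12 in MII prepubertal and 13.36, 13.33 and 13.86 in MII adult, with an SD of 0.52 over the 9. Both prepubertal replicate 1 arrays gave 14.10 and 14.40, just above that range, and GV adult replicate 1 gave 7.27. Of the 6 probe sets of LAMC1, 4 were above the 75th percentile on all 9 arrays. The others of these 4 were less steady. In GV adult pools with high BMP15 they read 8.94 and 8.75, 10.43 and 10.51, and 10.90 and 10.22. In MII adult pools they read, in the same order, 11.94, 11.70 and 11.86, then 12.65, 12.57 and 12.75, then 12.08, 12.27 and 10.94.

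VCAN, the large hyaluronan-binding proteoglycan of the expanding cumulus matrix, read 10.03 to 13.88 on the 9 arrays with a median of 11.02. It read 16.08 and 17.10 on both prepubertal replicate 1 arrays, a mean difference of 5.09. The other probe sets of VCAN were higher there as well, by 6.89 and 6.15. Its highest oocyte array value, 13.88, was that of MII adult replicate 3. THBS1, a matrix glycoprotein that also binds cells, read 9.99 to 14.10 on the 9 arrays, with 14.10 again in MII adult replicate 3. Its probe sets did not behave alike: the brightest gave 12.02 and 12.69 on both prepubertal replicate 1 arrays, 0.71 above the mean of the 9, while its 5 others were higher there by 1.11 to 7.66.

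Among the receptors, ITGB1, the beta chain shared by most integrins that bind collagen, laminin and fibronectin, read 12.06 to 13.72 on the 9 arrays with an SD of 0.58. ITGB5, which pairs with ITGAV to bind vitronectin, read 13.04 to 14.37 with an SD of 0.56, and 16.77 and 16.73 on both prepubertal replicate 1 arrays. The second probe set of ITGB5 had a mean of 7.20 over the 9 arrays and was above the 75th percentile on 1 of them. It did not follow the first, with 8.34 and 7.31 on both prepubertal replicate 1 arrays against 5.43 to 8.70 on the 9. ITGAE, the alpha chain known from lymphocytes that bind E-cadherin, read 11.51 to 13.36 with an SD of 0.53, and 12.11 and 12.22 on both prepubertal replicate 1 arrays. Those last values lay inside the oocyte range, and GV adult replicate 1 lay below it for all 3 receptors, at 11.09, 11.13 and 8.29 in the same order.

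The cadherins split into bright and dim. CDH3, or P-cadherin, read 11.63 and 11.41 in GV prepubertal, 13.33 and 12.17 in GV adult, 13.24 and 12.80 in MII prepubertal and 13.35, 12.66 and 14.44 in MII adult. The 3 arrays with low BMP15 gave 7.51, 8.07 and 6.09, all below every oocyte array. CDH1, or E-cadherin, read 9.07 to 11.02 on the 9 arrays and 8.50 and 9.34 on both prepubertal replicate 1 arrays, so the ranges overlap. CDH2, or N-cadherin, which joins granulosa cells, was dim on the 9 arrays, at 1.69 to 7.39.

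ADAMTS4, a secreted protease that cuts aggrecan and versican, read 12.17 and 13.33 in GV prepubertal, 13.37 and 11.12 in GV adult, 10.12 and 10.59 in MII prepubertal and 12.42, 10.95 and 9.55 in MII adult. It read 4.98, 5.61 and 7.16 on the 3 arrays with low BMP15, below every oocyte array. ADAM19, a membrane-bound ADAM protease, read 8.60 to 11.43 on the 9 arrays and 7.90 and 7.69 on both prepubertal replicate 1 arrays. CDH3 and both bright proteases were thus low on both prepubertal replicate 1 arrays. VCAN and the brighter probe set of ITGB5 were high on both of these arrays.

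**Figure D1:**
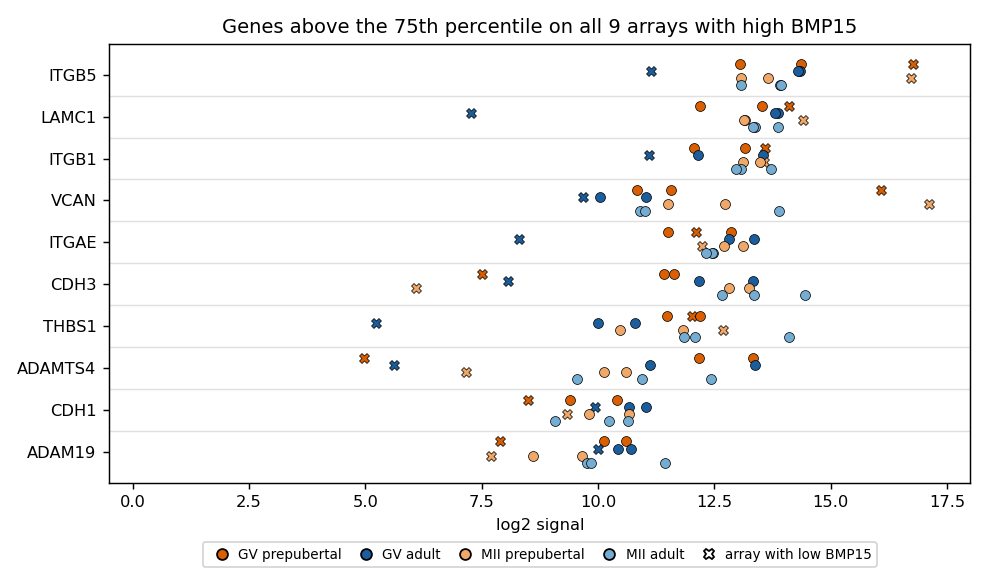
Log2 signal on each of the 12 arrays (x axis) of the 10 genes above the array's 75th percentile on all 9 arrays with high BMP15; colours give stage and age, and crosses the 3 arrays with low BMP15. VCAN and ITGB5 crosses of the prepubertal pools lie to the right of all circles, and CDH3 and ADAMTS4 crosses lie to the left of all circles.

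Both prepubertal replicate 1 arrays lay above all 9 oocyte arrays for 36 of the 111 genes (32.4%), against 13.2% of all genes with one probe set each. They lay below all 9 for 5 genes (4.50%), against 8.49% of all genes. After each array's median was subtracted, the counts were 28 above (25.2%, against 7.74% of all genes) and 6 below (5.41%, against 11.4% of all genes). On both of these arrays 29 genes (26.1%) were above the 75th percentile, against 28.3% of all genes, and 13 of them (11.7%, against 3.2%) were above it on none of the 9. The median difference over the 111 genes was 1.11, against 0.48 over all genes. These arrays were set apart by BMP15 and are not a group of the design, so the differences are a description with no test.

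By role, the difference was widest for proteoglycans, with a median of 5.09 over 5 genes, and for TIMPs, with a median of 4.30 over 4. It was 2.43 for the 11 glycoproteins, 1.68 for the 10 cadherins, 1.54 for the 11 MMPs, 1.03 for the 9 fibrillar collagens, 0.97 for the 14 other collagens and 0.89 for the 5 laminins. It was 0.68 for the 16 ADAM and ADAMTS genes, 0.54 for the 7 integrin beta chains and -0.35 for the 12 integrin alpha chains. It was 1.71 for the 4 integrin-binding or integrin-like genes and 1.11 for the 3 lysyl oxidases. In each role some genes did not lie above all 9 arrays on both: 4 of 5 proteoglycans and 3 of 4 TIMPs did, and 2 of 12 integrin alpha chains.

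Among matrix proteins, SRGN, or serglycin, the proteoglycan core of secretory granules, showed the widest gap of all 111. It read 16.09 and 15.98 on GV and MII prepubertal replicate 1 and 4.72 on GV adult replicate 1. On the oocyte arrays it read 8.35 and 4.90 in GV prepubertal, 0.36 and 3.77 in GV adult, 6.49 and 9.12 in MII prepubertal and 2.51, 4.77 and 5.05 in MII adult. The mean difference between both prepubertal replicate 1 arrays and the 9 was 11 on the log2 scale.

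POSTN, or periostin, a matricellular protein that binds integrins and collagen, read 13.64 and 14.72 on both prepubertal replicate 1 arrays and 9.40 on GV adult replicate 1. Its oocyte values were 5.57 and 1.91 in GV prepubertal, 2.83 and 2.06 in GV adult, 6.87 and 7.34 in MII prepubertal and 5.27, 4.05 and 6.92 in MII adult. All 3 arrays with low BMP15 were thus above all oocyte arrays as deposited. The prepubertal ones lay on average 9.42 above the mean of the 9, and the adult one 4.64 above it. On GV adult replicate 1, however, 9.40 was below the array's 75th percentile of 9.67, and the array median was 8.30. MII prepubertal replicate 3, at 7.34, had an array median of 5.64. After median subtraction GV adult replicate 1 was therefore not above all oocyte arrays for POSTN.

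Of the 29 genes above the 75th percentile on both of these arrays, the 20 with the widest gaps are described here. Their other matrix proteins were THBS2 (7.98 above the mean of the 9), the small leucine-rich proteoglycan LUM (7.37), the collagen-binding SPARC (6.28) and its relative SPARCL1 (5.22). Among their collagens, the fibrillar COL1A1 and COL3A1 differed by 4.36 and 3.85, the basement membrane chain COL4A1 by 4.27 and the fibril-associated COL21A1 by 4.79. COL12A1, another fibril-associated collagen, had a gap of 5.85, the cadherin CDH11 of 5.53 and the basement membrane chain COL4A4 of 4.63, but each was above the 75th percentile on 1 of both arrays. FN1, or fibronectin, read 8.38 and 8.19 on both prepubertal replicate 1 arrays and 2.00 to 7.12 on the 9, and DCN, or decorin, read 8.91 and 9.59 against 0.99 to 7.70. The second probe sets of FN1 and COL4A4 lay inside their oocyte ranges there, at 4.79 and 5.02 and at 4.72 and 5.41. Those of COL12A1 and CDH11 were higher there by their mean, by 2.54 to 6.36.

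Among receptors, ITGB3, which pairs with ITGAV to bind vitronectin and fibronectin, read 14.00 and 13.66 on both prepubertal replicate 1 arrays and 1.58 to 8.06 on the 9. ITGAV itself read 11.66 and 14.19 against 1.97 to 7.66, and ITGA2, a collagen receptor chain that pairs with ITGB1, read 13.02 and 13.94 against 4.07 to 8.02. CDH2 read 13.61 and 13.71 on both prepubertal replicate 1 arrays and 5.97 on GV adult replicate 1. Its oocyte values were 7.39 and 1.69 in GV prepubertal, 2.88 and 2.24 in GV adult, 5.99 and 5.29 in MII prepubertal and 3.38, 5.75 and 6.22 in MII adult. The cadherin CDH8 had a gap of 4.13.

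Among enzymes and inhibitors, TIMP1, which blocks MMPs, read 11 and 12.17 on both prepubertal replicate 1 arrays. It read 1.15 to 8.38 on the 9 arrays, and 8.38, in MII adult replicate 3, was far above the next value of 4.49. TIMP2 differed by 5.13, but one oocyte array, GV adult replicate 3, read 11.26 and came close to the prepubertal replicate 1 values of 11.33 and 11.83. LOXL4, an enzyme that crosslinks collagen and elastin, differed by 7.98, and ADAMTS1, which cuts versican, by 5.52. Neither TIMP1 nor LOXL4 passed the filter on dim probe sets, so they were not tested between groups.

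10 of these 20 genes have further probe sets, 14 in all, and each of the 14 was higher on both prepubertal replicate 1 arrays together than on the 9, by 2.59 to 8.70. On the low side, the mean of both prepubertal replicate 1 arrays lay 5.98 below the 9 for CDH3, 5.72 for COL2A1, 5.45 for ITGB4 and for ADAMTS4 and 4.38 for the elastic-fibre protein FBLN5. For COL2A1, the main collagen of cartilage, the 3 other probe sets had oocyte means of 4.70 to 5.27 and differed by -0.37 to -1.17. The cumulus, granulosa, theca and stroma sums given above moved with these values, and their part in the differences was not tested.

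**Figure D2:**
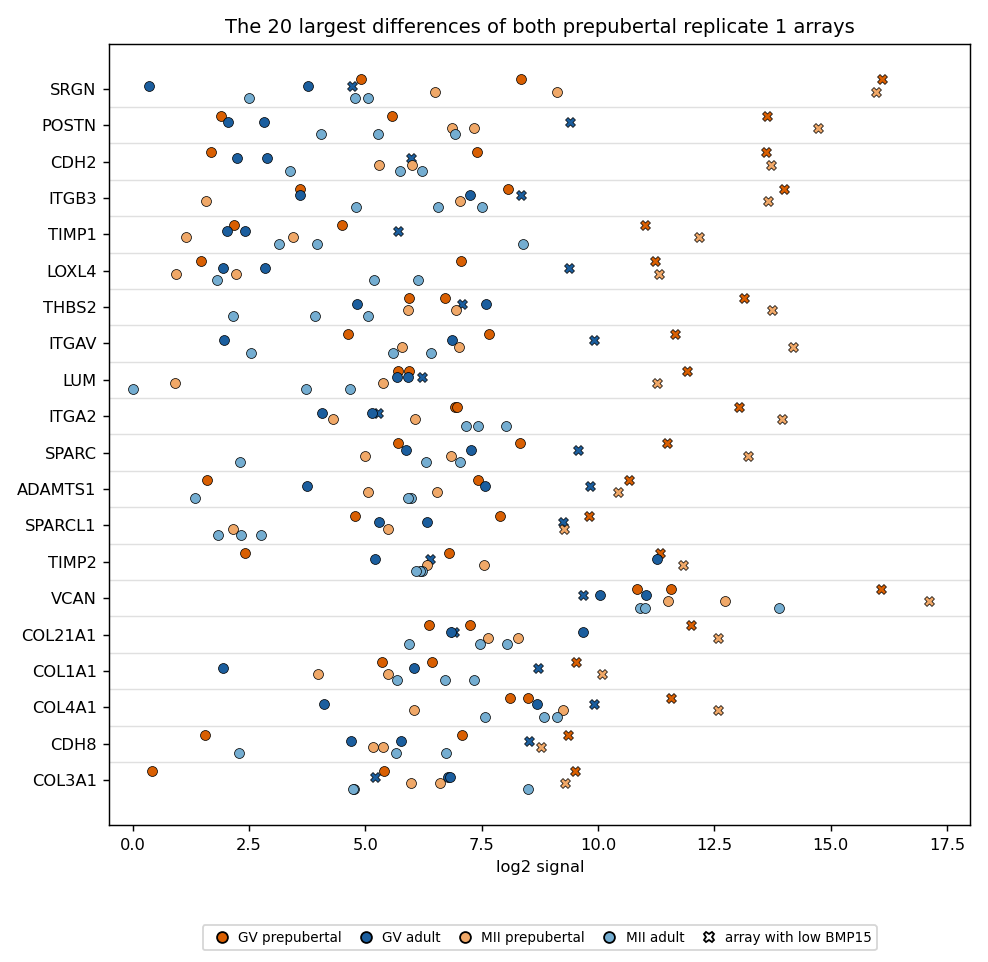
Log2 signal on each array (x axis) of the 20 genes with the widest difference between both prepubertal replicate 1 arrays and the mean of the 9 arrays with high BMP15, among genes above the 75th percentile on both; colours give stage and age, crosses the arrays with low BMP15. The crosses of the prepubertal pools lie right of every circle in each row, most narrowly for TIMP2, where 1 oocyte array is at 11.26, while the GV adult replicate 1 cross (blue) lies near or among the circles for SRGN, CDH2 and ITGA2.

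**Figure D3:**
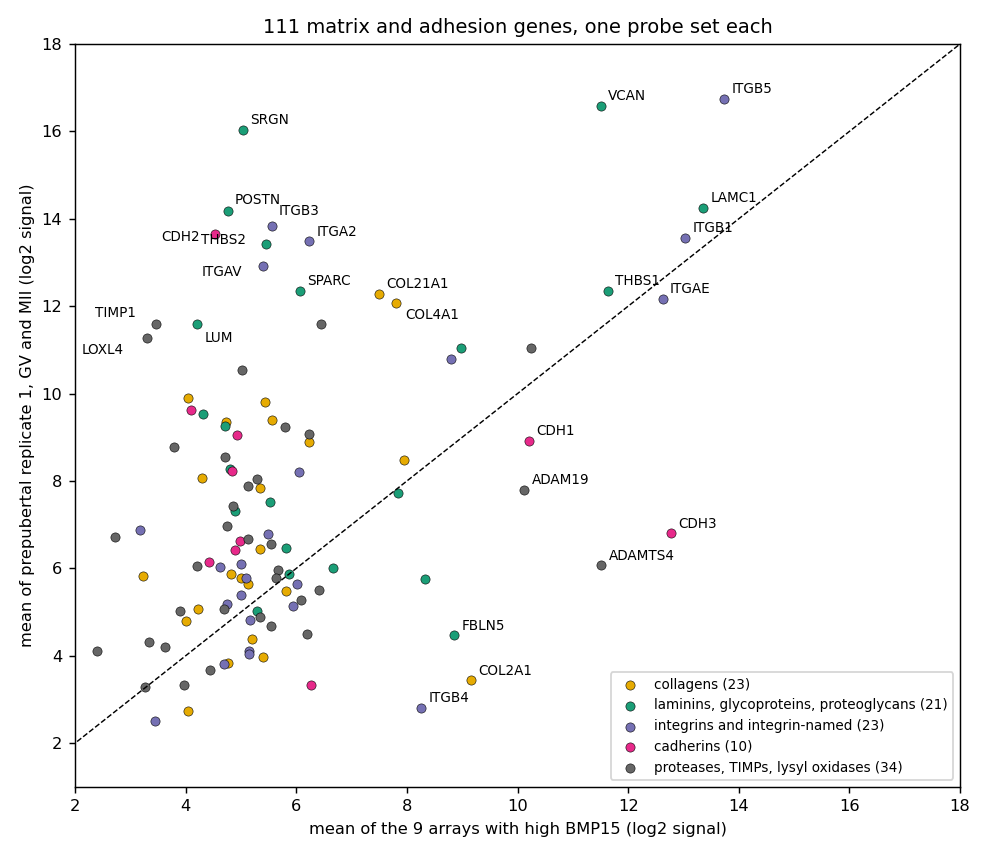
Each point is 1 of the 111 genes: mean log2 signal on the 9 arrays with high BMP15 (x axis) against the mean of both prepubertal replicate 1 arrays (y axis), coloured by role; the dashed line marks equality. SRGN, POSTN and CDH2 lie farthest above the line, and CDH3, COL2A1, ITGB4 and ADAMTS4 farthest below it.

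GV adult replicate 1, the other array with low BMP15, had a pattern of its own. It lay above all 9 arrays for 62 genes (55.9%, against 34.4% of all genes) and below them for 10 (9.01%, against 18.5%) as deposited. After median subtraction it lay above them for 39 (35.1%, against 14.8%) and below them for 20 (18.0%, against 29.4%). Its array median, 8.30, was the highest of all 12. SRGN and ITGA2 stayed inside the oocyte range on it, while LAMC1, ITGAE and THBS1, bright on every oocyte array, read 7.27, 8.29 and 5.23.

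Of the other genes of the same pathways, 19 of 23 further matrix proteins were higher on both prepubertal replicate 1 arrays by their mean, with a median difference of 1.68 against 0.48 over all genes, and 16 of 19 further adhesion receptors, with a median of 2.02. 10 of 13 collagen-processing enzymes were higher, with a median of 3.13. PLOD2, which hydroxylates collagen lysines, and SERPINH1, the collagen chaperone, were higher by 7.05 and 7.80. In the plasminogen system 4 of 6 were higher, and SERPINE2, an inhibitor of plasminogen activators made by granulosa cells, read 15.95 and 16.54 against 9.93 to 12.86 on the 9. Focal adhesion adaptors differed least, with 8 of 13 higher and a median of 0.85: CTNNB1, or beta-catenin, read 14.59 and 15.06 against 13.56 to 14.58. On the low side, EPCAM, an epithelial adhesion molecule, read 7.38 and 5.40 against 10.63 to 12.02, and NID2, a basement membrane linker, read 8.57 and 6.95 against 10.84 to 12.27.

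For the comparisons between groups, 67 of the 111 genes passed a filter on the mean over all arrays and 44 did not. None of the 67 passed an adjusted p of 0.05 in limma in any comparison, over 12 or over 9 arrays. Over all 14409 probe sets tested, 0% passed in each comparison, apart from adult maturation over the 9 arrays, where 17 (0.118%) did. The counts at an unadjusted p under 0.05 follow with each comparison. The comparisons share groups in pairs and their values are given side by side.

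The filter mean includes the 3 arrays with low BMP15. Of the 67 genes, 27 had a mean over the 9 other arrays at or below the limit of 5.57 and so passed through their values on those 3, among them SRGN, POSTN, CDH2, THBS2, SPARCL1, COL11A1, COL11A2 and COL17A1. Such a gene was admitted by arrays of the group in which it is high, so its differences over 12 arrays are a description and its place in a count supports nothing. Counts are therefore also given for the 40 genes with a mean over the 9 arrays above that limit, in a fit of 12 arrays filtered on the 9, an alternative chosen after seeing the data.

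Between ages at the GV stage, ITGB4 had the smallest p and lower values in prepubertal pools, and SRGN had higher values in them. ITGB4, the beta chain that pairs with the alpha 6 chain to anchor epithelial cells to laminin, read 4.04, 5.42 and 1.58 in the GV prepubertal pools and 7.99, 9.85 and 10.32 in the GV adult pools. The groups did not overlap, with or without the arrays of low BMP15. The difference was -5.71 (SE 1.93; adjusted p = 1.0 in limma) over 12 arrays and -6.59 (SE 1.49; adjusted p = 0.695 in limma) over the 9. The titles of the first and second GV replicates carry a letter b in both ages; the difference was -4.20 among the arrays with it and -8.74 between those without.

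SRGN differed by 6.83 (SE 2.44) over 12 arrays, having passed the filter only through both prepubertal replicate 1 arrays. Without GV prepubertal replicate 1 the difference was 3.67, and over the 9 arrays, where 8.35 and 4.90 faced 0.36 and 3.77, it was 4.56 (SE 1.99; adjusted p = 1.0 in limma). Between arrays without the letter b it was 1.12. THBS1 differed by 3.22 (SE 1.33), and by 1.50 without GV adult replicate 1, where it read 5.23. Its other probe sets overlapped between the ages. COL11A2, a minor chain of cartilage fibrils, read 4.60, 3.59 and 5.36 in prepubertal and 9.68, 7.15 and 7.00 in adult pools, a difference of -3.43 (SE 1.51).

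These 4 of 67 genes (5.97%) had an unadjusted p under 0.05, against 2.51% of all probe sets. Of the 40 genes 2 did, ITGB4 and THBS1, against 3.0% of probe sets under the same filter. Over the 9 arrays there were 3 (4.48%, against 4.64%), namely ITGB4, SRGN and COL2A1, which differed by 2.75 (SE 1.13). COL2A1 had the opposite sign, -0.79 and -1.16, over the 11 arrays left without GV prepubertal replicate 2 or 3. The other probe sets of COL2A1 overlapped between the ages on the 9 arrays. Groups over 12 arrays did not overlap for 4 genes higher (5.97%, against 3.8% of probe sets) and 3 lower (4.48%, against 1.88%) in prepubertal pools. Apart from ITGB4, SRGN, THBS1 and COL11A2, these were ITGA2, LAMB1 and COL1A2. POSTN differed by 2.28 (SE 2.58) and CDH2 by 3.86 (SE 2.47), or 0.84 without GV prepubertal replicate 1, with overlap between the ages for both. Without GV prepubertal replicate 1, POSTN differed by -1.02. Over the 67 genes the median difference was 0.095, against 0.25 over all probe sets, and 35 were above 0.

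Between ages at MII, SRGN again had higher values in prepubertal pools. Its prepubertal values were 15.98, 6.49 and 9.12 and its adult values 2.51, 4.77 and 5.05, which do not overlap. The difference was 6.42 (SE 2.44), and 3.70 (SE 1.82) over the 9 arrays. THBS2, a thrombospondin that limits vessel growth, read 13.74, 6.95 and 5.92 in prepubertal and 5.07, 2.16 and 3.92 in adult pools, a difference of 5.15 (SE 2.03) that was 2.72 without MII prepubertal replicate 1. Its mean over the 9 arrays, 5.45, was below the filter's limit. LAMA4, a laminin chain of vessel walls, went the other way: it read 4.91, 5.25 and 1.21 in prepubertal and 7.67, 6.79 and 7.46 in adult pools, a difference of -3.51 (SE 1.66), or -2.22 without MII prepubertal replicate 3, and -4.07 (SE 1.66) over the 9. Its second probe set had the same order, with 5.17, 5.81 and 5.63 against 8.21, 7.88 and 7.33.

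These 3 genes (4.48%) had an unadjusted p under 0.05, against 2.66% of probe sets. Of the 40 genes LAMA4 alone did, against 2.81%. Over the 9 arrays there were 2 (2.99%, against 2.56%), LAMA4 and COL17A1, the transmembrane collagen of hemidesmosomes, at -3.36 (SE 1.57). The groups did not overlap for 5 genes higher (7.46%, against 4.78%) and 4 lower (5.97%, against 5.18%). POSTN differed by 4.23 (SE 2.58) and CDH2 by 3.21 (SE 2.47), and by 1.69 and 0.52 over the 9 arrays. ITGB4 differed by -1.24 (SE 1.93) over 12 arrays and by 1.73 (SE 1.36) over the 9, where 10.80 and 10.14 faced 10.07, 9.05 and 7.12; MII prepubertal replicate 1 read 1.58. The median over the 67 genes was 0.14, against -0.02 over all probe sets, and -0.20 over the 40.

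During maturation of adult oocytes, 5 genes with an unadjusted p under 0.05 had lower values at MII and THBS1 higher ones. ITGB1BP1, which binds the tail of integrin beta 1, read 11.12, 9.55 and 11.84 in the GV pools against 9.05, 7.86 and 2.49 in the MII pools, with no overlap and a difference of -4.37 (SE 1.45; adjusted p = 0.563 in limma). Without MII adult replicate 3, where it read 2.49, the difference was -2.38. ITGB3BP, also known as the kinetochore protein CENPR, read 5.77, 8.83 and 8.87 before and 1.53, 6.02 and 3.49 after maturation, and 5.77 came from GV adult replicate 1. Its difference was -4.14 (SE 1.59; adjusted p = 0.585 in limma) over 12 and -5.17 (SE 1.62; adjusted p = 0.208 in limma) over the 9 arrays. The 2 other probe sets of ITGB3BP did not follow it, with 1.89 and 1.73 in the GV adult pools with high BMP15 against 4.18, 5.78 and 6.92 at MII, and 3.99 and 6.34 against 5.84, 4.99 and 6.57.

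COL1A2, a chain of type I collagen, read 9.94, 9.54 and 10.85 in the GV pools against 6.06, 8.33 and 5.60 in the MII pools, a difference of -3.44 (SE 1.17; adjusted p = 0.563 in limma) with no overlap. The second probe set of COL1A2 did overlap, with 5.47, 4.53 and 3.80 in the GV pools against 2.41, 6.59 and 2.90 in the MII pools. SPARCL1 differed by -4.66 (SE 1.84) over 12 arrays and -3.52 (SE 1.81) over the 9. COL11A1, a minor fibrillar chain, differed by -3.51 (SE 1.58) over 12 and, without GV adult replicate 1, by -2.01 (SE 1.56) over the 9. THBS1 read 5.23, 10.79 and 9.99 before and 12.09, 11.84 and 14.10 after maturation, a difference of 4.01 (SE 1.33; adjusted p = 0.563 in limma). Over the 9 arrays it was 2.28 (SE 0.81; adjusted p = 0.279 in limma), still without overlap. The other probe sets of THBS1 did not all follow. For one set 5.92, 3.75 and 7.29 before faced 8.92, 9.64 and 12.30 after maturation, without overlap. The rest overlapped between the stages over 12 arrays, some with mostly lower values at MII. These read 10.10, 11.02 and 7.36 against 7.85, 7.75 and 4.49, and 9.60, 4.80 and 6.23 against 4.30, 1.04 and 7.48. ITGA2 differed by 2.93 (SE 1.37) over the 9 arrays, where 4.07 and 5.14 faced 8.02, 7.43 and 7.16. The other probe set of ITGA2 overlapped there, with 2.25 and 1.83 against 2.17, 6.41 and 2.53.

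In this comparison 6 genes (8.96%) had an unadjusted p under 0.05, against 7.93% of probe sets, and 5 (7.46%, against 11.4%) did over the 9 arrays. Of the 40 genes 4 did over 12 arrays, against 8.21%. The groups did not overlap for 4 genes higher (5.97%, against 8.11%) and 8 lower (11.9%, against 7.19%) at MII. The median over the 67 genes was -0.64, against -0.10 over all probe sets, and it was 0.14 after median centring of the arrays. ITGB4 differed by -0.64 (SE 1.93), POSTN by 0.65 (SE 2.58), CDH2 by 1.42 (SE 2.47) and SRGN by 1.16 (SE 2.44).

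During maturation of prepubertal oocytes, COL17A1 was the one gene with an unadjusted p under 0.05 over 12 arrays (1.49%, against 3.41% of probe sets). It read 7.19, 7.17 and 6.13 in the GV pools against 5.71, 4.15 and 0.71 in the MII pools, a difference of -3.31 (SE 1.49) without overlap. Without MII prepubertal replicate 3 the difference was -1.90, and 0 of the 67 genes then had such a p (2.23% of probe sets). Of the 40 genes, which do not include COL17A1, 0 did, against 3.91%. In a fit of both prepubertal groups that blocked on the replicate number, 6 genes (8.96%, against 10.1%) had such a p and none an adjusted p under 0.05. Over the 9 arrays, without the block, 5 genes (7.46%, against 6.99%) did. ITGB4 had the smallest, where 5.42 and 1.58 faced 10.80 and 10.14, a difference of 6.98 (SE 1.49; adjusted p = 0.536 in limma). Over all 12 arrays ITGB4 differed by 3.83 (SE 1.93), with MII prepubertal replicate 1 at 1.58.

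The others over the 9 arrays were CDH3 at 1.50 (SE 0.67), ADAMTS4 at -2.39 (SE 1.0), the membrane protease ADAM9 at -3.83 (SE 1.69) and COL17A1 at -4.22 (SE 1.71). The other probe sets of ADAM9 overlapped between the stages on these arrays. They read 8.34 and 2.31 at GV against 6.87 and 2.15 at MII, and 6.10 and 0.81 against 5.16 and 4.61. CDH3 and ADAMTS4 differed by 0.53 and -0.87 over 12 arrays. No gene was higher at MII without overlap over 12 arrays, against 3.66% of probe sets, and 4 were lower (5.97%, against 6.05%), namely ITGB1BP1, ADAMTS5, LAMA4 and COL17A1. ITGB1BP1 read 11.13, 10.54 and 11.12 in the GV pools against 10.47, 7.19 and 9.58 in the MII pools. The median over the 67 genes was -0.51, against -0.29 over all probe sets, and 0.40 after median centring of the arrays.

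The difference between the maturation changes of both ages (prepubertal minus adult) was tested as an interaction. Over 12 arrays THBS1 alone had an unadjusted p under 0.05 (1.49%, against 1.21% of probe sets), at -4.24 (SE 1.88; adjusted p = 1.0 in limma), and it was also the one of the 40, against 1.47%. Without GV adult replicate 1 its difference was -2.52, and the other probe sets of THBS1 did not all follow it in adult maturation, as given above. Over the 9 arrays 5 genes did (7.46%, against 3.06%): ITGB4 at 8.32 (SE 2.02; adjusted p = 0.999 in limma), ITGB3BP at 5.38 (SE 2.40), LAMA4 at -5.42 (SE 2.46), ITGA2 at -4.69 (SE 2.03) and THBS1 at -2.97 (SE 1.20). For ITGB4 the interval at 95%, not adjusted for the number of genes, ran from 4.00 to 12.63 over the 9 arrays. It rests on GV prepubertal values of 5.42 and 1.58. Over 12 arrays the unadjusted p of ITGB4 was not under 0.05, and under the alternatives its difference ran from 2.83 to 9.02. In the fit over the 9 arrays each prepubertal group held 2 arrays.

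**Figure D4:**
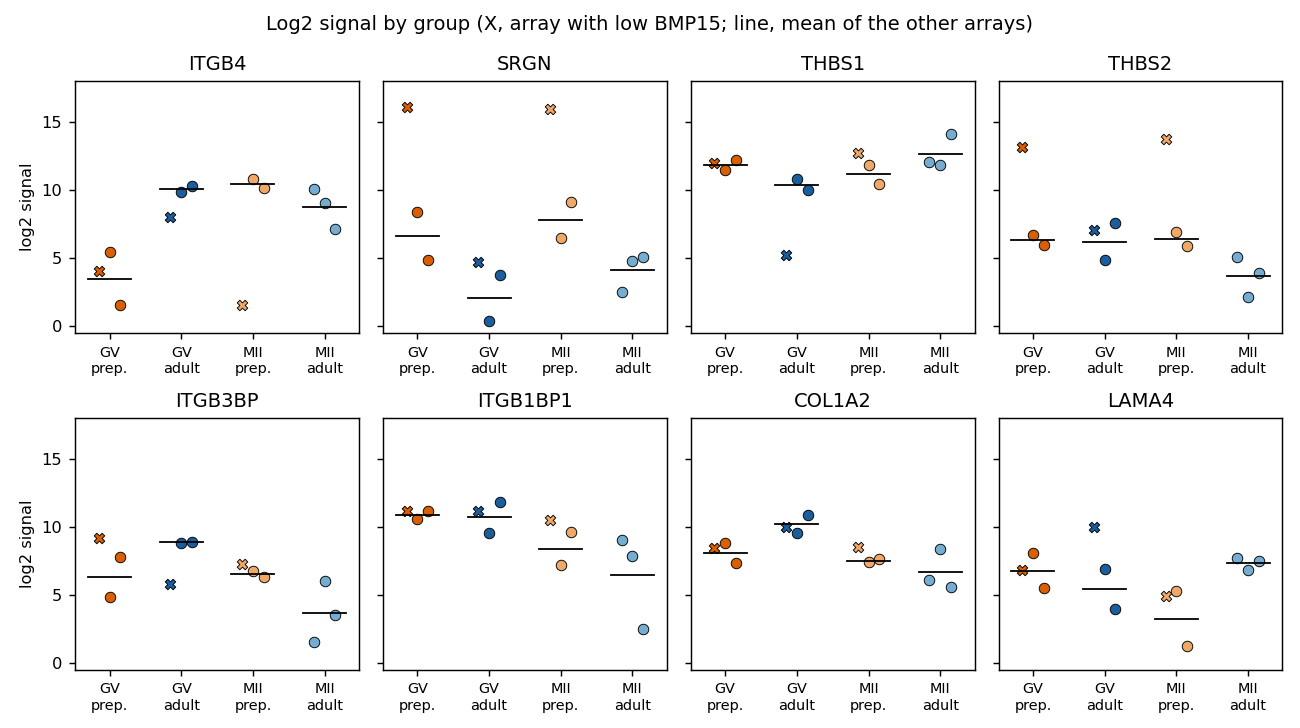
Log2 signal (y axis) by group, 3 pools each, of 8 genes named in the comparisons; crosses are arrays with low BMP15, and lines the mean of the other arrays of the group. ITGB4 is low in all 3 GV prepubertal pools and on the MII prepubertal cross, and SRGN and THBS2 crosses of the prepubertal groups stand far above their groups.

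**Figure D5:**
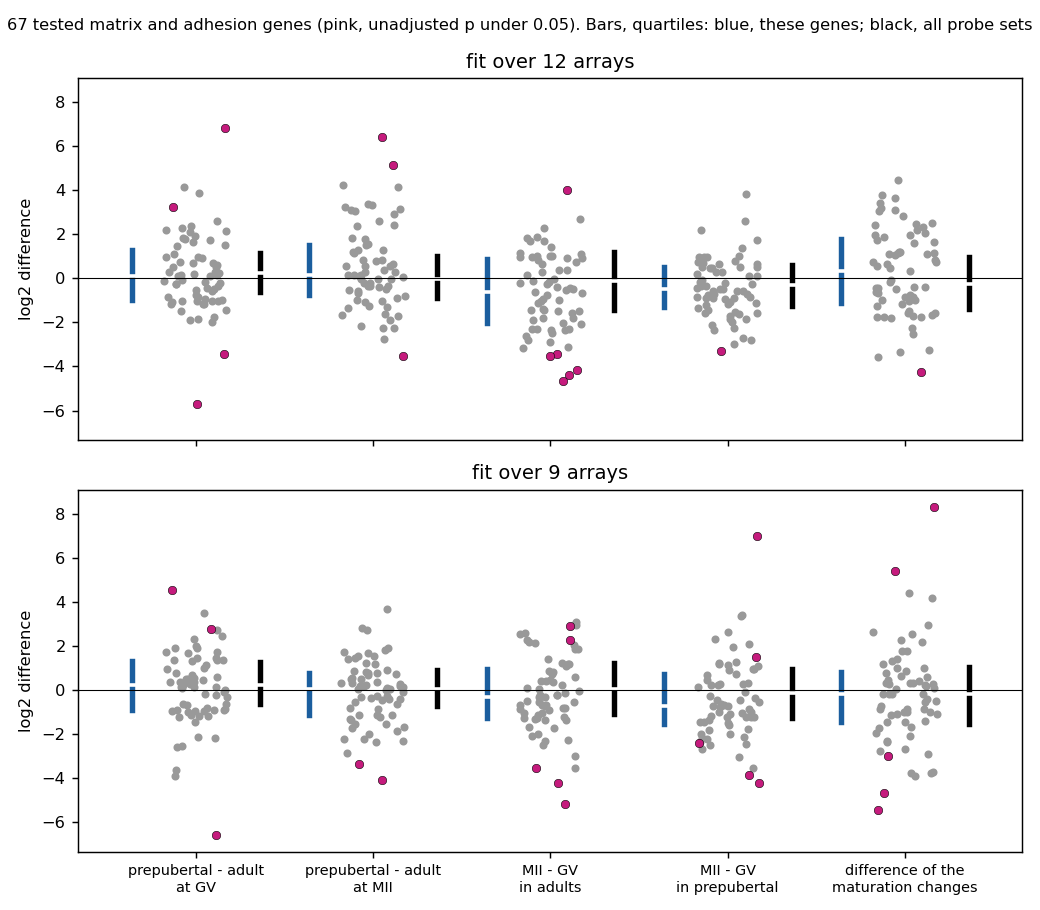
Fitted log2 difference (y axis) of the 67 tested genes in the 5 comparisons (x axis), over 12 arrays (top) and over the 9 with high BMP15 (bottom); pink points have an unadjusted p under 0.05, and bars give the quartiles, with a white gap at the median, of these genes (blue) and of all 14409 probe sets (black). The blue and black quartile bars overlap in every comparison, and the widest points of the lower panel are ITGB4, at -6.59, 6.98 and 8.32.

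The other genes of these pathways gave the same count of 0 at an adjusted p of 0.05 in limma. Of 13 focal adhesion adaptors, 11 collagen-processing enzymes, 13 further matrix proteins, 16 further adhesion receptors and 4 plasminogen genes tested, 11 of 285 results over the 5 comparisons (3.86%, against 3.55% of all probe set results) had an unadjusted p under 0.05 over 12 arrays. The 9 arrays gave 20 (7.02%, against 5.73%). At GV, the hyaluronan receptor CD44 differed between ages by -3.98 (SE 1.44), reading 4.52, 4.33 and 1.29 in prepubertal and 8.65, 6.74 and 6.69 in adult pools. At MII, CCN1 and CCN2, matricellular proteins, were higher in prepubertal pools by 5.27 (SE 2.01) and 4.21 (SE 1.68). CCN1 read 13.60 in MII prepubertal replicate 1, 5.75 and 6.28 in the other prepubertal pools and 4.46, 3.02 and 2.35 in adult pools, and it passed the filter only through both prepubertal replicate 1 arrays.

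In adult maturation, PCOLCE, an enhancer of procollagen processing, differed by -3.45 (SE 1.17), the junction protein F11R by -4.20 (SE 1.78), the basement membrane proteoglycan HSPG2 by -3.83 (SE 1.55) and the laminin receptor DAG1 by 3.70 (SE 1.52). In prepubertal maturation, VCL, or vinculin, which links integrins and cadherins to actin, differed by 3.15 (SE 1.28) and CD44 by 3.05 (SE 1.44). Vinculin read 10.77, 6.47 and 6.0 in the GV pools against 12.33, 10.58 and 9.79 in the MII pools, which overlap through GV prepubertal replicate 1. Over the 9 arrays, FERMT2, or kindlin 2, an integrin activator, read 12.50 and 11.81 in GV prepubertal, 13.54 and 13.68 in GV adult and 13.50 to 14.06 at MII. It differed by -1.46 (SE 0.50) between ages at GV and by 1.75 (SE 0.50) in prepubertal maturation.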

How the data were processed

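The 12 arrays measured GV and MII oocyte pools of both ages, with 3 pools a group and groups taken from the sample descriptions. The authors deposited MAS5 signals, per the submitters' processing notes (version not given in the sources used here). That these are log2 values was inferred from the deposited values: they ran from 0 to 18.66, and as powers of 2 they had nearly the same trimmed mean on every array. No detection calls, sequences or genome were used here. MAS5 scales each array by its trimmed mean, so an array with a few very bright transcripts can have lower values elsewhere. The number of arrays limits the precision.

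From the 24128 probe sets 112 controls were left out. Gene names came from GEO's platform annotation: 13292 probe sets had 1 symbol, 86 several and 10638 none, and all 111 symbols were current. Of the 111 genes, 57 had several probe sets, and the one with the highest mean over the 12 arrays was used. Probe sets with a mean over the 12 arrays above the 40th percentile (5.57) were tested, which left 14409.

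Differences were tested with limma 3.58.1 in R 4.3.3, in one fit of 12 arrays and 4 groups (8 residual degrees of freedom) with an intensity trend, and Benjamini-Hochberg adjustment over all tested probe sets at 0.05. A second fit left out the 3 arrays with low BMP15. The fit was tested on simulated data for adult maturation: of 50 probe sets given a log2 change of 2, 0% were called, against 26% for a change of 4, 68% for 6 and 76% for 8.

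The genes and lists were chosen with earlier results of these data known. Genes named in the text were POSTN, CDH2, ITGB4 and SRGN, up to 5 higher and 5 lower genes per fit, by smallest unadjusted p if under 0.05, those above the 75th percentile on all 9 arrays with high BMP15, and, of those above the 75th percentile on both prepubertal replicate 1 arrays, the 20 with the widest difference there. Genes on the low side of that difference, those named for groups that do not overlap, and those of the pathway lists were named after their values were seen. So were COL12A1, CDH11, COL4A4, FN1 and DCN, which are not among those 20.

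Deviations from the group means of samples with the same replicate number correlated at 0.609, 0.149 and 0.306 for prepubertal GV and MII pools, which counts as pairing. The standard errors and p-values printed come from fits without a block, and the blocked fit is an alternative. The choice of a block rests on these correlations alone, since the labels do not tie pools together. The other same-numbered correlations were -0.105, 0.0152 and -0.0849 for adult stages, 0.383, -0.0215 and 0.381 for ages at GV and -0.0934, 0.0959 and -0.0736 for ages at MII. Alternatives covered normalization, filter, pseudocount, covariates, probe set choice, array weights and arrays left out. A filter on the mean over the 9 arrays was added after seeing the data.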

Additional observations from a re-analysis of the deposited data

How the results depend on the processing

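None of the 67 tested genes passed an adjusted p of 0.05 in limma under any alternative. With the threshold at an unadjusted p under 0.05 and a 2-fold change, 4 genes passed between ages at GV, 3 at MII, 6 in adult maturation, 1 in prepubertal maturation and 1 in the difference of the maturation changes. In fits of the compared groups that blocked on the replicate number (replicate block), an unadjusted p under 0.05 was found for 7, 5, 5, 6 and 1 genes in the same order (4.28%, 3.39%, 6.82%, 10.1% and 2.17% of all probe sets), with 0 called and a lowest adjusted p of 0.130, for SRGN between ages at GV. The block changed no call among these genes. With 1 array left out at a time, 2 to 6, 1 to 7, 4 to 8, 0 to 5 and 0 to 3 genes had an unadjusted p under 0.05.

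Among single genes, 20 of the values under an alternative had the opposite sign. Median centring gave 0.14 for ITGB4 in adult maturation and 0.035 for ADAMTS4 in prepubertal maturation, and the letter b as a covariate gave -0.58 for CDH3 in prepubertal maturation. For ITGB4 between ages at MII the value was 0.46 with array weights, 1.73 over 9 arrays, 0.92 over 8 arrays, leaving out MII adult replicate 3 too, 1.88 over 9 arrays with quantile normalization and 2.10 over 9 arrays with median centring. The cause was not tested. Leaving out 1 array at a time gave -1.16 to 2.56 for COL2A1 and -1.02 to 4.84 for POSTN between ages at GV, and -2.88 to 1.73 for ITGB4 between ages at MII. It gave -1.34 to 0.17 for ITGB4 in adult maturation, and -3.46 to 0.71 for ADAMTS4 and -0.81 to 2.84 for CDH3 in prepubertal maturation. The sign turned without GV prepubertal replicate 1 for POSTN and CDH3, without GV prepubertal replicate 2 or 3 for COL2A1 and ADAMTS4, without GV adult replicate 2 for COL2A1, without MII prepubertal replicate 1 for ADAMTS4 and ITGB4, without MII prepubertal replicate 2 or 3 for CDH3, and without MII adult replicate 3 for ITGB4.

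The median over the 67 genes moved in each comparison by less than 1.21, the SD of their median on single arrays within groups. That SD includes the 3 arrays with low BMP15, such as 9.26 against 6.70 and 6.71 in GV adult. It is not the error of a group difference, so it does not show that the moves are small. The sign of the median over the 67 genes was not fixed. In adult maturation it was -1.13 to -0.31 with 1 array left out and 0.14 after median centring, and in prepubertal maturation -0.95 to 0.16 and 0.40. Other filters change the set of genes too. With no filter the median over all 111 genes was -0.24 between ages at GV and -0.05 at MII. With the filter on the 9 arrays the median over 40 genes was -0.00162 and -0.20 in these comparisons. It was -0.47 for the difference of the maturation changes, against 0.34 over the 67.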

Other observations

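MII adult replicate 3 had the highest value of the 9 arrays with high BMP15 for VCAN (13.88), THBS1 (14.10), CDH3 (14.44) and TIMP1 (8.38), and the lowest for ADAMTS4 (9.55) and ITGB1BP1 (2.49). The median of the 111 genes minus the array median was 0.16 on it and -0.52 to -0.20 on the 8 others.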
